A study of Mus musculus with 10 samples.

Results

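The genes described here encode enzymes that place acyl groups on histone lysines, or that make the acyl-CoA those enzymes use. They were chosen by name as 9 genes, Ep300, Crebbp, Kat2a, Kat2b, Kat5, Kat7, Kat8, Acss2 and Acly, and every peak of the quantitation table annotated to one of them was taken. This gave 32 of 108253 peaks, in 8 of the 9 genes. Kat2a had 0 peaks. H3K18La (lactylation of lysine 18 of histone H3) and H3K27Ac (acetylation of lysine 27 of the same histone) were profiled by CUT&Tag, in which a transposase tethered to an antibody cuts the DNA beside a marked nucleosome. The tissue was neural retina explanted from wild-type C57Bl/6J mice at postnatal day 28, freed of the pigment epithelium, and cultured for 48 h in medium with 5 mM or 25 mM glucose. Each assay used 500000 dissociated cells. The deposited protocol names antibodies to H3K18La and H3K9me3 and none to H3K27Ac, which the study's methods do name, and libraries were taken by their titles. H3K18La was measured in 3 libraries per glucose level and H3K27Ac in 2, and the labels place all 10 libraries in 1 batch. The series' design calls the assays biologically replicated but does not say whether each library came from its own animal, so p-values measure the spread between these libraries. Values are mark signal on the DNA of these genes, and neither transcript nor enzyme levels are given here.

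p300 (Ep300) and its paralog CBP (Crebbp) are large coactivators that acetylate histone tails, H3K27 among other sites, at enhancers and promoters, and both also use longer acyl-CoAs. GCN5 (Kat2a) and PCAF (Kat2b) are catalytic subunits of SAGA-type and ATAC complexes. The MYST enzymes Tip60 (Kat5), HBO1 (Kat7) and MOF (Kat8) act in the NuA4/TIP60 complex, with ING and BRPF or JADE partners, and in the MSL and NSL complexes. ACSS2 makes acetyl-CoA from acetate and ACLY makes it from citrate in the cytosol and nucleus, so both feed the writers.

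RPKM scales reads to the length of the peak and to a denominator set for each library. These denominators, which may include the authors' normalization factors, were 1358008 to 7424470 reads, and the median peak held 1 to 11 reads. The share of those reads that lay in peaks was higher at 25 mM glucose in both marks, from 11.81 to 12.01% at 5 mM to 31.2 to 35.0% at 25 mM for H3K18La, and from 21.1 and 31.5% to 69.5 and 56.5% for H3K27Ac. The denominators, not reads in peaks, scale the RPKM values, so this shift is part of every glucose difference below, and the value with reads in peaks as the scale is given for the peaks the results turn on. The strongest promoter peak of 6 of 6 rod markers was called higher at 25 mM in each mark (limma adjusted p under 0.05, as below). Of such peaks of all genes, 20.1% were called higher in H3K18La and 42.5% in H3K27Ac. In H3K18La it was called higher at 1 of 4 cone, 0 of 3 bipolar, 0 of 3 Müller glia, 1 of 2 amacrine and 0 of 2 ganglion cell markers. In H3K27Ac these counts were 1, 3, 2, 1 and 0. Called or not, the estimate was above 0 at 3, 1, 2, 2 and 1 of them in H3K18La and at 4, 3, 3, 2 and 1 in H3K27Ac. With reads in peaks as the scale, 0 of all 108253 peaks were called in either mark. No promoter peak was listed for the 3 microglial or 2 blood markers, nor for Rpe65 and Ttr of the pigment epithelium, whose other 2 markers, Best1 and Rlbp1, had one.

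Of the 32 peaks, 7 lay in promoters, which the annotation sets from 1000 bp before to 500 bp after a start site. They belonged to Ep300 (1), Crebbp (2), Kat5 (1), Kat7 (1), Kat8 (1) and Acly (1). The other 25 comprised 17 intronic, 5 exonic, 2 3′ UTR and 1 distal intergenic peak. Kat2b held 14 peaks, none in its promoter, and Crebbp held 8. Peaks are numbered here from the 5′ to the 3′ end of each gene.

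Some gaps in this list follow from annotation. The first-exon peak Kat2b-2 (chr17:53567457-53568930, GRCm38) began 596 bp after the start site and so fell just outside the promoter window. A peak over the Acss2 start site (chr2:155517669-155518369) was annotated to the neighbouring gene Ggt7 and was not counted among the 32. Its H3K27Ac values were 10.6 and 16.3 RPKM at 5 mM and 42.0 and 26.3 RPKM at 25 mM, with a log2 difference of 1.31 ± 0.48 (SE) and a limma adjusted p of 0.0635. Both Acss2 peaks that were counted also overlapped Gss on the opposite strand. At Kat2a (chr11:100704746-100712465) the peak nearest to the start site lay 17060 bp away, in the 3′ UTR of Dhx58. A gene with no listed peak may still carry either mark, since the values cover listed peaks alone.

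The sequences below show DNA under peaks on which the results turn, with CpG dinucleotides in capitals. The first 4 are RefSeq promoter windows (GRCm38.p6, 300 bases across the start site, on the gene's strand) of the genes whose promoter peaks rose in H3K27Ac. They are Kat5 at chr19:5610045-5610344, minus strand, Kat7 at chr11:95310197-95310496, minus strand, Kat8 at chr7:127912267-127912566, plus strand, and Acly at chr11:100527951-100528250, minus strand. The last is the central 300 bases, plus strand, of the strongest intronic peak, Crebbp-8 in intron 19 of 30, at chr16:4102948-4103247.
Kat5 promoter: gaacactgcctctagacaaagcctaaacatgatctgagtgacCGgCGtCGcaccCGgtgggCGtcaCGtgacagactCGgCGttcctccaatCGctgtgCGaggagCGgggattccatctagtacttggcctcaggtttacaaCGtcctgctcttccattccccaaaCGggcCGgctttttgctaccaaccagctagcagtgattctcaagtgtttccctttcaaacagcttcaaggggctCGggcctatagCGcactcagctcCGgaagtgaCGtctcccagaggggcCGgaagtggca
Kat7 promoter: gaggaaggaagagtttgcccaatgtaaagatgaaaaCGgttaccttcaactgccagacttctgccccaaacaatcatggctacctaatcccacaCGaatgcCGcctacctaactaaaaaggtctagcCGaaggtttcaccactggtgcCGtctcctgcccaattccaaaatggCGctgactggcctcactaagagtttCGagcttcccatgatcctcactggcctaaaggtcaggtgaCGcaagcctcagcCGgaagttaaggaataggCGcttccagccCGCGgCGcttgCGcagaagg
Kat8 promoter: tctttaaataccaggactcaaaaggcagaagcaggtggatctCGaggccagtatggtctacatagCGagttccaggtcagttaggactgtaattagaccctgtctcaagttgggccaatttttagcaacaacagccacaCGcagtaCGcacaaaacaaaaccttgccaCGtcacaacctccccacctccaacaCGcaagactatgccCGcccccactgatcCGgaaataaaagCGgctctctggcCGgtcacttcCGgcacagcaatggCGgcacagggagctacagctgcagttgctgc
Acly promoter: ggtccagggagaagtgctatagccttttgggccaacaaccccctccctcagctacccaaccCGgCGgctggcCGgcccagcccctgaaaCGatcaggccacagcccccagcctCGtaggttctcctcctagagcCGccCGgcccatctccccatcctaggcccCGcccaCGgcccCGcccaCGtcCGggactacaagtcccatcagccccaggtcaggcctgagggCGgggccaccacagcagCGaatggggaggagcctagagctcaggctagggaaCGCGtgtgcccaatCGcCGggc
Crebbp-8 centre: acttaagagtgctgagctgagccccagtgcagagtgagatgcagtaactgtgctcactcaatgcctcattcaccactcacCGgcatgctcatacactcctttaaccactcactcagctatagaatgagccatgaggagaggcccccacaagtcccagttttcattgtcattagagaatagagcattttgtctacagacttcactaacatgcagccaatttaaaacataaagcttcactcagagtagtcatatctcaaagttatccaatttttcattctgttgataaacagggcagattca

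The 4 promoter windows held 19, 14, 12 and 18 CpGs, while the window of Crebbp-8 held 1. Over 32851 RefSeq promoter windows the median was 7 and the quartiles were 3 and 20. Second RefSeq windows, not shown, held 29 CpGs at Kat5 and 5 at Kat8. Over whole peaks the GC content was 55.7 to 71.3% in the 7 promoter peaks and 39.1 to 59.4% in the other 25, whose highest value was that of Kat2b-2. The medians, 59.9% and 46.3%, were near those of all promoter peaks (57.5%) and all other peaks (48.8%). Letters of the GC box (GGGCGG or CCGCCC) stood in 7 of the 12 RefSeq windows of the members and in 35.7% of all windows. The E-box CACGTG stood in 1 of the 12, the Kat5 window above, and in 7.15% of all windows. The cyclic-AMP response element TGACGTCA stood in 0 of the 12 and in 1.79% of all.

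H3K18La was higher at 25 mM than at 5 mM at 13 of the 32 peaks and lower at 0 (limma on log2(RPKM + 0.5) over all peaks, Benjamini-Hochberg adjusted p under 0.05). Over all 108253 peaks, 20.6% were higher and 0.117% lower. The 13 were 9 peaks of Kat2b, 3 of Crebbp and 1 of Acly. None of the 7 promoter peaks was called, against 20.4% of all promoter peaks and 20.7% of all other peaks. The median log2 difference was 1.44 over the members and 0.76 over all peaks. With each library scaled to its reads in peaks the medians were 0.38 and -0.07, and 0 members and 0 of all peaks were called. Centred on the median peak, 2 members were higher, Kat2b-12 and Kat2b-13, and 4.80% of all peaks. Leaving out library 2 of the 25 mM group left 7 members and 11.2% of all peaks.

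Kat2b-12, in intron 5, gave the smallest adjusted p. Its H3K18La values were 2.37, 3.58 and 4.73 RPKM at 5 mM and 18.9, 12.1 and 15.4 RPKM at 25 mM, from 7 to 69 reads. The log2 difference was 2.00 ± 0.30 (SE, limma adjusted p = 0.000526), and every 25 mM library lay above every 5 mM library. Its neighbour Kat2b-13, further into the same intron, had 0.611, 1.49 and 0.949 RPKM at 5 mM and 7.87, 6.97 and 5.65 RPKM at 25 mM. There the log2 difference was 2.30 ± 0.38 (adjusted p = 0.00100), again with no overlap. Both also stayed called without any single library, and with reads in peaks as the scale the differences were 0.65 and 1.13, not called.

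The largest called differences without overlap besides Kat2b-13 were at 2 intron 1 peaks of Kat2b. Kat2b-7 held 0, 3 and 0 reads at 5 mM and 3, 12 and 5 at 25 mM (2.76, 5.34 and 3.05 RPKM), with a fitted log2 difference of 2.48 ± 0.58 (limma adjusted p = 0.00759). Kat2b-5 had 3.30, 2.68 and 0 RPKM at 5 mM and 9.91, 7.87 and 5.63 RPKM at 25 mM, a log2 difference of 2.15 ± 0.61 (adjusted p = 0.0232). Groups stood apart at both, but on so few reads that the size of the fitted difference depends on the pseudocount. With reads in peaks as the scale they differed by 1.70 and 1.06, not called. Kat2b-5 was called in 3 of the 6 fits without a library, and Kat2b-7 in 5 of the 6, all but that without library 2 at 25 mM. Without library 3 at 5 mM, which held 0 reads at Kat2b-5, the fitted difference of that peak was smaller.

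The first-exon peak Kat2b-2 also rose. It had 2.57, 0.916 and 0.999 RPKM of H3K18La at 5 mM and 8.97, 4.17 and 7.32 RPKM at 25 mM, a log2 difference of 1.91 ± 0.42 (limma adjusted p = 0.00582), and of 0.70, not called, with reads in peaks as the scale. The remaining called peaks of Kat2b, numbers 3, 4, 8 and 11, differed by 1.18 to 2.07 on the log2 scale, with groups apart at each, though Kat2b-8 turned to -0.044 with reads in peaks as the scale. Numbers 3, 4 and 11 were called in all 6 fits without a library, and Kat2b-8 in 2 of the 6 and not with a replicate block. Other peaks of the gene were not called. Kat2b-9, in intron 1, had 3.19, 1.51 and 3.30 RPKM at 5 mM and 1.14, 2.20 and 1.51 RPKM at 25 mM, a log2 difference of -0.55 ± 0.45 (adjusted p = 0.423), and the groups overlapped. Kat2b-10 (0.49 ± 0.52) and Kat2b-14 (-0.26 ± 0.56) overlapped too. With reads in peaks as the scale Kat2b-9, Kat2b-10 and Kat2b-14 differed by -1.68, -0.60 and -1.19, none called.

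At Crebbp the called peaks were intronic. Crebbp-8, the strongest peak of any member by mean RPKM over the libraries, had 5.57, 4.53 and 2.88 RPKM of H3K18La at 5 mM and 5.97, 10.1 and 24.4 RPKM at 25 mM. The groups stood apart by a narrow margin, since library 1 at 25 mM was close to library 1 at 5 mM, and the log2 difference was 1.35 ± 0.42 (limma adjusted p = 0.0344). Crebbp-7, upstream in the same intron, held 0, 8 and 0 reads at 5 mM and 3, 12 and 8 at 25 mM. Its groups overlapped, although the fitted difference of 2.40 ± 0.68 was called (adjusted p = 0.0223). That difference was 3.34 without library 2 at 5 mM and 1.93 without library 1 or library 3 at 5 mM. Crebbp-5 in intron 2 rose by 1.62 ± 0.43 (adjusted p = 0.0159). The calls of Crebbp-8, Crebbp-7 and Crebbp-5 were kept in 2, 1 and 3 of the 6 fits without a library. With reads in peaks as the scale their differences were 0.011, 1.55 and 0.45, none called. Crebbp-8 was also not called with a replicate block. The 2 promoter peaks of Crebbp had 0 to 6 reads per 5 mM library and were not called (limma adjusted p = 0.111 and 0.157). Crebbp-2, the stronger of them by the mean over both marks but the weaker in H3K18La, had 0, 0 and 1.56 RPKM at 5 mM and 1.08, 2.61 and 1.43 RPKM at 25 mM, with overlapping groups.

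Acly-2, annotated to a 3′ UTR 26.5 kb into the gene, rose from 3.21, 1.80 and 1.87 RPKM of H3K18La at 5 mM to 10.3, 6.66 and 7.14 RPKM at 25 mM, a log2 difference of 1.62 ± 0.34 (limma adjusted p = 0.00403), and of 0.34, not called, with reads in peaks as the scale. The Acly promoter peak had 0.512, 1.46 and 1.59 RPKM at 5 mM and 4.67, 3.72 and 2.19 RPKM at 25 mM. Those groups stood apart, but the difference of 1.27 ± 0.46 missed the threshold (adjusted p = 0.0685).

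The other promoter peaks carried little H3K18La at 5 mM. Kat8-1 held 0, 1 and 0 reads at 5 mM and 4, 2 and 2 at 25 mM. Kat5-1 held 1, 2 and 0 reads, then 7, 9 and 2. Kat7-1 held 4, 3 and 1, then 11, 11 and 4, and Ep300-1 held 5, 4 and 2, then 9, 10 and 6. In RPKM the groups stood apart at Kat8-1 and Kat5-1 and overlapped at Kat7-1 and Ep300-1. Adjusted p-values of these 4 in limma were 0.0909 to 0.363. With voom on the recovered reads, 2 of the 7 promoter peaks were called in H3K18La, Kat5-1 (adjusted p = 0.0259) and Acly-1 (adjusted p = 0.00784), and with peaks of a mean of at least 1 RPKM Acly-1 alone was (adjusted p = 0.0475). The calls at these promoters thus turn on the fit. Without overlap of the groups, 21 of the 32 peaks were higher at 25 mM, 4 of the 7 promoter peaks among them, where 36.6% of all peaks were. This share was not taken over promoter peaks alone.

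**Figure D1:**
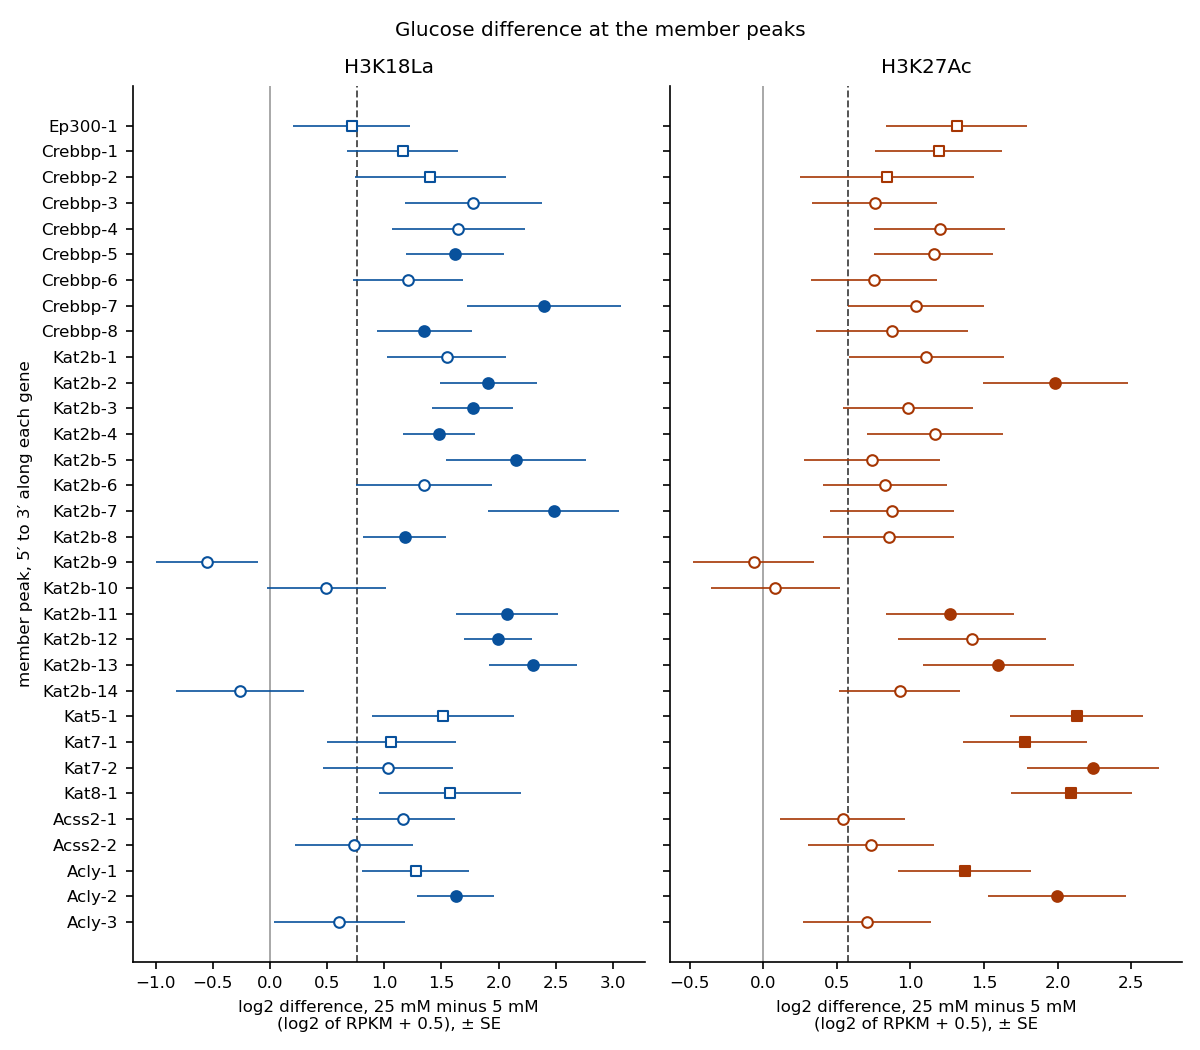
Log2 difference of RPKM + 0.5 between 25 mM and 5 mM glucose (x axis, bars are SE) at each of the 32 peaks for H3K18La (left) and H3K27Ac (right). Squares are promoter peaks, circles other peaks, filled symbols passed an adjusted p of 0.05, and the dashed line is the median over all peaks (0.76 and 0.58). No promoter square is filled on the left and 4 of 7 are on the right.

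H3K27Ac was higher at 25 mM at 9 of the 32 peaks and lower at 0, with 16.4% of all peaks higher and 0.179% lower. Among the 9 were 4 of the 7 promoter peaks, those of Kat5, Kat7, Kat8 and Acly, where 40.6% of all promoter peaks and 11.9% of all other peaks were called. The other 5 were Kat7-2, Acly-2, Kat2b-2, Kat2b-11 and Kat2b-13. With a replicate block the peaks Acly-1, Kat2b-2 and Kat2b-11 were not called. The median log2 difference was 1.07 over the members and 0.58 over all peaks, and it turned to -0.13 and -0.29 with reads in peaks as the scale, where 0 members and 0 of all peaks were called. Leaving out any 1 of the 4 libraries, which leaves 1 library in an arm that is then assumed to vary like the other, or ordinary in place of robust moderation in limma, left 0 members and 0 of all 108253 peaks. The members' median was 0.69 to 1.36 without a library and 1.07 with ordinary moderation.

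The promoter peaks of the 3 MYST genes were among those called. Kat5-1, over the Tip60 start site (chr19:5609518-5610727), had 2.29 and 4.26 RPKM of H3K27Ac at 5 mM and 21.4 and 11.1 RPKM at 25 mM, a log2 difference of 2.13 ± 0.46 (limma adjusted p = 0.0134). Kat8-1, over the MOF start site (chr7:127912051-127912817), had 2.41 and 1.47 RPKM at 5 mM and 9.97 and 9.48 RPKM at 25 mM, a log2 difference of 2.09 ± 0.41 (adjusted p = 0.0116). In both, every 25 mM library was above every 5 mM library, and the pair at 25 mM was close for Kat8 and wide for Kat5. Kat7-1, over the HBO1 start site (chr11:95309445-95310873), had 2.75 and 3.38 RPKM at 5 mM and 13.5 and 10.1 RPKM at 25 mM, a log2 difference of 1.78 ± 0.42 (adjusted p = 0.0154). An antisense gene, Gm11520, also overlaps that peak. With reads in peaks as the scale the differences of Kat5-1, Kat8-1 and Kat7-1 were 0.95, 0.96 and 0.61, none called.

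The largest called rise of H3K27Ac was outside the promoters, at Kat7-2, in exon 13 of 14 of Kat7. It held 1 and 6 reads at 5 mM (0.361 and 1.51 RPKM) and 31 and 23 reads at 25 mM (6.72 and 4.83 RPKM), a log2 difference of 2.24 ± 0.45 (limma adjusted p = 0.0119), and of 1.295, not called, with reads in peaks as the scale. The same exon had H3K18La values of 2.22, 0.602 and 1.15 RPKM at 5 mM and 7.94, 1.92 and 1.58 RPKM at 25 mM, with overlapping groups (1.03 ± 0.57, adjusted p = 0.227).

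Of the supply genes, Acly-1 rose from 5.50 and 8.09 RPKM of H3K27Ac to 22.3 and 14.6 RPKM, a log2 difference of 1.37 ± 0.45 (limma adjusted p = 0.0424). Acly-2 rose from 2.55 and 6.27 RPKM to 21.9 and 14.1 RPKM, by 2.00 ± 0.47 (adjusted p = 0.0152). With reads in peaks as the scale these were 0.15 and 0.81, neither called. Neither Acss2 peak was called in either mark. Acss2-1, in exon 10 of 13, had a mean of 4.41 ± 1.64 RPKM of H3K27Ac (SD, n = 2) at 5 mM and 6.49 ± 1.319 RPKM at 25 mM, with overlapping groups. Its H3K18La means were 1.12 ± 0.552 RPKM (SD, n = 3) and 2.99 ± 0.270 RPKM, with groups apart but an adjusted p of 0.0835 in limma.

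No peak of the paralogs Ep300 and Crebbp passed the threshold in H3K27Ac, but the promoter peaks Ep300-1 and Crebbp-1 and the intronic Crebbp-5 passed it with a pseudocount of 1, with peaks of a mean of at least 1 RPKM and with voom (limma adjusted p of 0.0217 to 0.0460 at the promoter peaks), as did Crebbp-4 with that filter alone. Ep300-1 (chr15:81585109-81586673) had 4.73 and 8.44 RPKM at 5 mM and 25.0 and 10.8 RPKM at 25 mM. The groups stood apart, the 25 mM libraries were far from each other, and the log2 difference was 1.31 ± 0.48 (limma adjusted p = 0.0617). Crebbp-1 had 2.21 and 2.53 RPKM, then 9.10 and 3.95 RPKM (1.19 ± 0.43, adjusted p = 0.0607). Crebbp-2 had 2.45 and 5.81 RPKM, then 15.9 and 3.15 RPKM, and its groups overlapped (0.84 ± 0.59, adjusted p = 0.352). In all 3 the high value at 25 mM came from library 1, the library with 69.5% of its reads in peaks, and with reads in peaks as the scale the differences were 0.10, 0.063 and -0.31. Counting peaks whose groups did not overlap, 27 of the 32 and 6 of the 7 promoter peaks were higher at 25 mM, where 53% of all peaks were. That share was not taken over promoter peaks alone, whose median log2 difference was 1.13 against 0.50 at all other peaks.

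**Figure D2:**
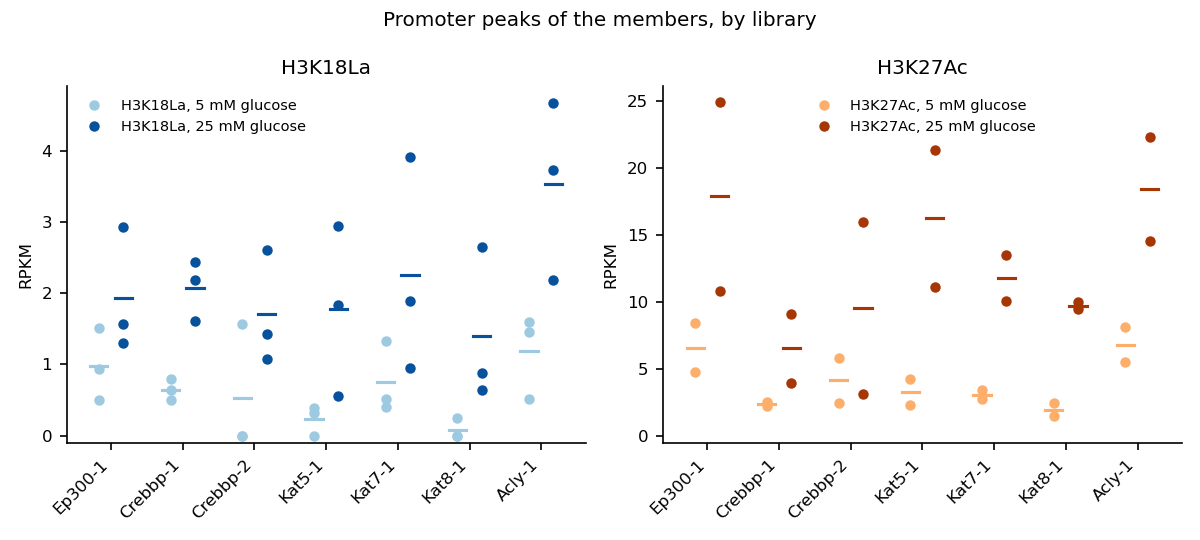
RPKM of the 7 promoter peaks in every library (points) with group means (bars) for H3K18La (left, 3 libraries per glucose level) and H3K27Ac (right, 2 per level). Light symbols are 5 mM and dark symbols 25 mM glucose. The H3K27Ac libraries at 25 mM lie above those at 5 mM at every peak except Crebbp-2, and the y axes differ between the panels.

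The strongest intronic peaks, Crebbp-8 and Kat2b-12, had higher H3K27Ac means than each of the 7 member promoter peaks at both glucose levels. The peak over the Acss2 start site, annotated to Ggt7 and not among the 7, had a mean of 34.2 RPKM at 25 mM. Crebbp-8 had 17.2 and 38.1 RPKM at 5 mM and 44.3 and 50.6 RPKM at 25 mM, and its 25 mM mean exceeded that of 99.5% of all peaks. Its glucose difference, 0.87 ± 0.52, was not called (limma adjusted p = 0.250). Kat2b-12 had 9.41 and 21.4 RPKM at 5 mM and 41.8 and 36.1 RPKM at 25 mM, a mean above 98.9% of all peaks, with a difference of 1.42 ± 0.50 just outside the threshold (adjusted p = 0.0538). The first-exon peak Kat2b-2 had 4.86 and 12.3 RPKM, then 38.1 and 27.5 RPKM, and was called (1.99 ± 0.49, limma adjusted p = 0.0175). With reads in peaks as the scale the differences of these 3 were -0.39, 0.17 and 0.76, none called. In H3K18La at 25 mM, Kat2b-12 and Crebbp-8 had means of 15.5 ± 3.39 and 13.5 ± 9.68 RPKM (SD, n = 3), above 98.2% and 97.4% of all peaks.

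**Figure D3:**
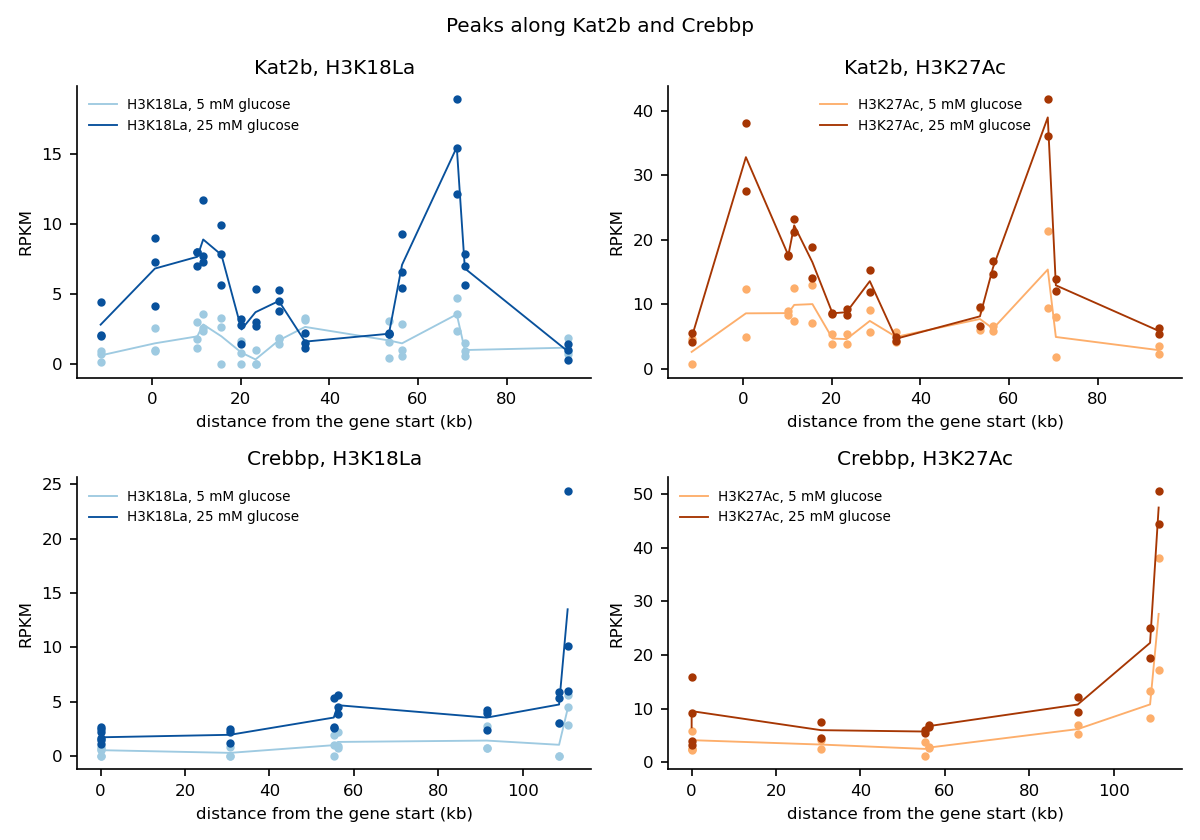
RPKM in every library (points) and group means (lines joining peaks) against distance from the annotated gene start for the 14 peaks of Kat2b (top) and the 8 of Crebbp (bottom), H3K18La left and H3K27Ac right. Light is 5 mM and dark 25 mM glucose. In Kat2b the highest means at 25 mM lie at 68.8 kb, and the glucose groups overlap in both marks near 34.5 kb and 53.4 kb. In Crebbp the highest lie at 110.6 kb.

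Neither mark was called at Kat2b-9 and Kat2b-10. Kat2b-9 had 4.14 and 5.77 RPKM of H3K27Ac at 5 mM and 4.36 and 4.98 RPKM at 25 mM, and Kat2b-10 had 6.02 and 9.43 RPKM, then 6.63 and 9.64 RPKM. Their log2 differences, -0.06 ± 0.41 and 0.08 ± 0.44, were the lowest of the 32, as they were with reads in peaks as the scale, at -1.22 and -1.11, not called. Between the calls of the 2 marks, 4 peaks were common, Acly-2, Kat2b-2, Kat2b-11 and Kat2b-13, which are 30.8% of the H3K18La calls and 44.4% of the H3K27Ac calls. Over all peaks, those higher in both marks were 39.5% of the H3K18La and 49.6% of the H3K27Ac calls. At 14 peaks neither mark was called.

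A call in one mark and not in the other does not show that the marks responded differently, so the difference of the glucose changes was tested in a joint fit of the 10 libraries. It passed the threshold at 0 of the 32 peaks, and over all peaks at 0% in the direction of H3K18La and 0% in that of H3K27Ac, where 4988 peaks and 1 member had an unadjusted p under 0.05 (limma, smallest adjusted p 0.971). That member was Kat2b-7, whose change was larger in H3K18La by 1.61 ± 0.74 on the log2 scale. The opposite extreme was Kat7-2, at -1.21 ± 0.88. At 6 of the 7 promoter peaks the estimate was below 0, from -0.72 at Kat7-1, and at 19 of the 25 other peaks it was above 0. Over all peaks the medians had the same signs, -0.15 at promoters and 0.27 elsewhere, but that of promoters turned to 0.098 with a pseudocount of 0.1 and to 0.046 without library 1 of H3K27Ac at either glucose level. Of the 32 members, 20 were above 0, 14 without library 2 of H3K27Ac at 5 mM and 26 with a pseudocount of 0.1. A direct contrast of promoter with other peaks within the member loci moved with glucose by -0.16 in H3K18La and by 0.50 in H3K27Ac (mean log2 of promoter minus other peaks). Exact two-sided permutation tests gave p = 0.800 and p = 0.667, with 0.100 and 0.333 the smallest these designs allow.

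In level the marks differed at most members. H3K18La lay below H3K27Ac at 18 of the 32 peaks at 25 mM and above it at 0, with 15.5% of all peaks lower and 1.02% higher. At 5 mM it lay below at 24 and above at 0, with 17.2% of all peaks lower and 0.224% higher. The largest called differences at 25 mM were at the promoters Kat5-1 (-2.97 ± 0.55, limma adjusted p = 0.00161), Ep300-1 (-2.86 ± 0.49, adjusted p = 0.000964) and Kat8-1 (-2.58 ± 0.54, adjusted p = 0.00321). Different antibodies and shares of reads in peaks are part of such a contrast. Scaled to reads in peaks, 1 member was called at 25 mM and 0 at 5 mM, and the split over all peaks at 25 mM went from 1106 higher and 16754 lower to 3229 higher and 2869 lower, and at 5 mM from 243 higher and 18634 lower to 1550 higher and 1817 lower. Without library 1 of H3K27Ac at 25 mM, 0 members and 3.78% of all peaks were lower in H3K18La at that level. Without library 2 of H3K27Ac at 5 mM, 0 members and 0.989% of all peaks were lower at 5 mM.

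Summed over the peaks of a gene and divided by their summed length, the order of the genes differed between the marks. The kind of peak differs by gene, from 1 promoter peak each at Ep300, Kat5 and Kat8 to 14 peaks outside promoters at Kat2b. Gene and kind of peak therefore cannot be told apart in this order. In H3K18La at 25 mM, Kat2b stood first with 7.06, 5.34 and 5.91 locus RPKM, above every library of the next, Acly, with 5.09, 3.93 and 3.38. Crebbp (3.65 ± 0.906, SD, n = 3) overlapped Acly, and Kat7 (2.73 ± 2.14), Acss2 (2.04 ± 0.104), Ep300 (1.93 ± 0.874), Kat5 (1.78 ± 1.19) and Kat8 (1.39 ± 1.10) followed with overlapping ranges. In H3K27Ac at 25 mM, Ep300 (17.9 ± 9.98, SD, n = 2), Kat2b (16.9 ± 0.508), Kat5 (16.3 ± 7.24) and Acly (14.7 ± 3.79) came first and overlapped each other. Crebbp (11.6 ± 0.0744), Kat7 (9.94 ± 2.09), Kat8 (9.73 ± 0.344) and Acss2 (6.16 ± 1.53) followed, with Crebbp still inside the ranges of Ep300 and Kat5. Kat8, the gene with the lowest H3K18La, had 2.41 and 1.47 locus RPKM of H3K27Ac at 5 mM, also the lowest mean.

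The ratio of the group means, 25 mM to 5 mM, was 5.01 for Kat8, 4.96 for Kat5 and 4.13 for Kat7 in H3K27Ac, and 1.61 to 2.84 for the other 5 genes. All 8 genes had groups apart in that mark. With reads in peaks as the scale Kat8, Kat5 and Kat7 had ratios of 1.94, 2.07 and 1.71, while Crebbp, Kat2b and Acss2 were below 1, at 0.834, 0.972 and 0.706, with the 25 mM libraries all below the 5 mM libraries at Crebbp and Acss2 and overlapping at Kat2b. In H3K18La the ratios of the genes with the most reads were 3.46 for Crebbp, 3.39 for Kat2b and 3.15 for Acly, with groups apart, and 1.28, 1.24 and 1.14 on the other scale, where the groups overlapped. Ep300 went from 1.96 to 0.707 in H3K18La, with overlapping groups on both scales, and from 2.72 to 1.12 in H3K27Ac, where the groups then overlapped.

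**Figure D4:**
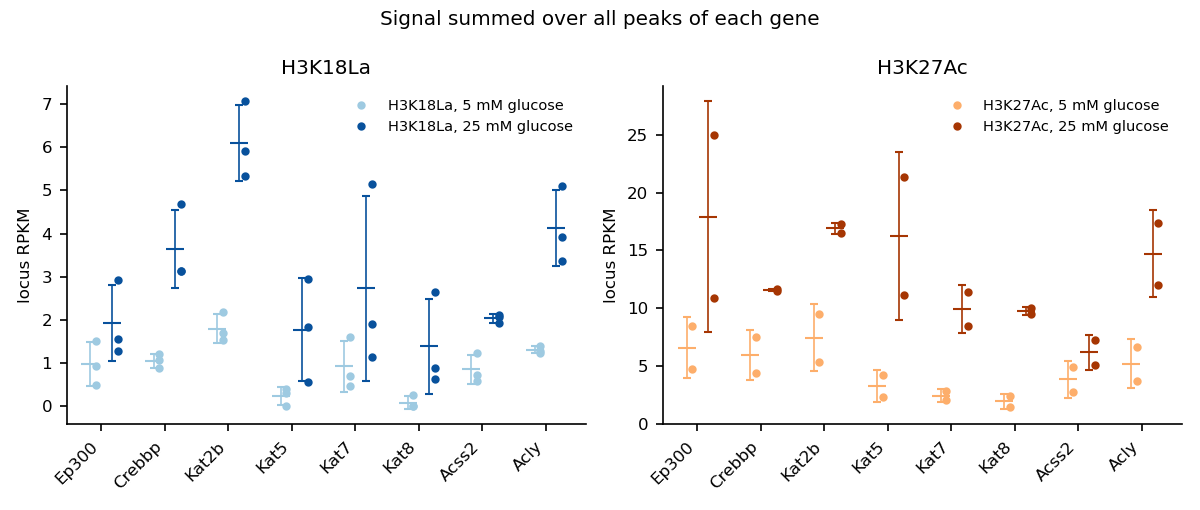
Locus RPKM, the reads of all peaks of a gene scaled to their summed length and the library, in every library (points) with group mean and SD (bars) for H3K18La (left) and H3K27Ac (right). Light is 5 mM and dark 25 mM glucose. Kat2b is highest in H3K18La at 25 mM, and H3K27Ac groups stand apart at all 8 genes; the y axes differ.

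Of 65 further genes of the same machinery, 56 had a promoter peak, and the strongest of each was read in the fits above. H3K27Ac rose at 36 of the 56 and fell at 0, where it rose at 42.5% of the strongest promoter peaks of 14562 genes. It rose at 6 of 8 other histone acetyltransferases, 24 of 29 complex partners, 3 of 9 genes of acyl-CoA supply and lactyl transfer, and 3 of 10 acetyl-lysine readers. Median log2 differences were 1.53, 1.47, 1.09 and 1.17, beside 1.16 over all those genes. The largest were Mcrs1 of the NSL complex (2.47 ± 0.45, limma adjusted p = 0.0113), the alanyl-tRNA synthetase Aars, reported to transfer lactyl groups (2.23 ± 0.46, adjusted p = 0.0126), and the acyl-lysine binder Yeats4 (2.17 ± 0.48, adjusted p = 0.0135). Without any single H3K27Ac library, which leaves 1 in an arm, or with reads in peaks as the scale, 0 of these calls were left, as were 0 of all 108253 peaks.

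H3K18La rose at 7 of the 56 and fell at 0, where it rose at 20.1% of the strongest promoter peaks. By list these were 1 of 8, 3 of 29, 2 of 9 and 1 of 10, with medians of 1.08, 1.01, 0.83 and 1.11 beside 0.88 over all those genes. The largest was Aars, with means of 0.414 RPKM at 5 mM and 4.05 RPKM at 25 mM (2.33 ± 0.56, limma adjusted p = 0.00927). Yeats2 of the ATAC complex (2.08 ± 0.59, adjusted p = 0.0218) and the adaptor Tada2a (1.77 ± 0.57, adjusted p = 0.0422) followed. Without library 1 at 25 mM or with reads in peaks as the scale, 0 of the 7 calls were left, and without single other libraries 1 to 5.

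Across the 10 libraries, the promoters most like Ep300-1 among 9926 others with a mean of at least 2 RPKM were those of Fbxo33, Esco1 and Ythdf3 (Pearson r = 0.996, 0.996 and 0.994 of log2 values). Those most like Crebbp-2 were Slc38a2, Fndc3b and Tex15 (0.984, 0.969 and 0.958). The median r over the candidates was already 0.902 and 0.773, so these values are a description. The 10 points span both marks and both glucose levels, and what sets the median was not tested.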

How the data were processed

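CUT&Tag was analysed in 10 libraries of retinal explants, 3 per glucose level for H3K18La and 2 for H3K27Ac. Per the study's methods, reads were aligned to GRCm38, MACS peaks seen in at least 2 replicates and outside blacklisted regions were merged, and peaks were annotated with ChIPseeker 1.34.1. The methods describe a peak set of this size merged from H3K18La peaks of retinas of several ages, so a site marked by H3K27Ac alone may not be listed. The deposited values are RPKM per peak and library, made by the authors. All of them were whole multiples of a step per library (100% within 0.01), from which reads and denominators were recovered. The authors' own comparison of glucose levels, also deposited, was not used.

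Each mark was fitted with limma 3.58.1 in R 4.3.3 (intensity trend, robust moderation) on log2(RPKM + 0.5) over all 108253 peaks, and a joint fit of the 10 libraries gave contrasts between marks. Differences on this scale understate changes at low peaks. Adjusted p is Benjamini-Hochberg over all peaks, called under 0.05. Single values were tested by exact permutation. Members and gene lists were chosen with earlier results of these data known. So was robust moderation, made the main setting for both marks because ordinary moderation had shown no power for H3K27Ac. In the present fits of H3K27Ac, ordinary moderation called 0 peaks and robust moderation called 17794 higher. The rule for named peaks took each member's strongest promoter and other peak, the 3 largest called changes per comparison whose groups do not overlap, the 3 largest over the wider lists, and the 3 promoters most like those of Ep300 and Crebbp. Other peaks named were chosen after their values were seen. Alternatives were pseudocounts of 0.1 and 1, a mean of at least 1 RPKM, 2 other scalings, ordinary moderation, voom on the recovered reads, a replicate block, a threshold of 0.01 and leaving out each library. All replicates of a group differed by more than counting noise. Gene models are GENCODE and promoter windows RefSeq, both GRCm38, matched by symbol for all 9 genes.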

Additional observations from a re-analysis of the deposited data

How the results depend on the processing

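Scaled to reads in peaks, 0 members were called for glucose in either mark, 1 for the marks at 25 mM and 0 at 5 mM. H3K18La at Kat2b-8 turned to -0.044, and locus ratios were 0.707 for Ep300, 1.28 for Crebbp, 1.24 for Kat2b, 0.874 for Acss2 and 1.14 for Acly in H3K18La, and 1.12 for Ep300, 0.834 for Crebbp, 0.972 for Kat2b, 1.71 for Kat7, 1.94 for Kat8, 0.706 for Acss2 and 1.20 for Acly in H3K27Ac. Centred on the median peak, 2 members were called in H3K18La and 14 for the marks at 5 mM. A threshold of 0.01 left 8 in H3K18La, 0 in H3K27Ac, 9 for the marks at 25 mM and 15 at 5 mM. A pseudocount of 0.1 left 0 in H3K27Ac and 9 for the marks at 25 mM, and ordinary moderation left 0 in H3K27Ac, while a mean of at least 1 RPKM gave 16. Leaving out single libraries gave 7 to 14 calls in H3K18La, 0 in H3K27Ac, 0 to 21 for the marks at 25 mM and 0 to 24 at 5 mM. At 25 mM the marks had 0 calls without H3K27Ac library 1, 7 without its library 2, and 11 without H3K18La library 2 or 3. The difference of the changes had 0 calls under every alternative run. Same-numbered libraries of a mark did not deviate together (correlations -0.004 to 0.024), and a replicate block gave 11 calls in H3K18La, 6 in H3K27Ac, 16 for the marks at 25 mM and 23 at 5 mM.

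The alternatives for the wider lists were chosen after seeing the data. Their 7 H3K18La calls became 3 with a pseudocount of 0.1, 0 with either other scaling, 20 with voom, 1 with the replicate block, 1 at 0.01, and 0 to 5 without a library. Their 36 H3K27Ac calls became 12 when centred, 15 with the replicate block, and 0 with a pseudocount of 0.1, reads in peaks, ordinary moderation, 0.01 or any library left out. The promoter contrast in H3K18La reversed to 0.12 with a pseudocount of 0.1 and ran from -0.36 to 0.083 without a library, positive without library 3 at 25 mM. In H3K27Ac it ran from -0.017 to 1.02, negative without library 1 at 25 mM. The cause of these shifts was not tested.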
